A study of Homo sapiens with 8 samples.

Results

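The genes described here are 49 genes of the actin cytoskeleton and of focal adhesions, the plaques through which a cell grips its substrate. They were taken by name from a list of actins, filament-binding proteins, myosin II subunits, filament crosslinkers, turnover factors, contractility kinases, a formin and adhesion proteins, and the rule sets no threshold on a measured value. The list was chosen with earlier results of these data known, so its calls set beside those of all genes are a description and not a test. Each of the 49 had a matched transcript in the files and passed the filter on low counts, so they make up 49 of the 18201 genes tested and of the 58217 genes with a matched transcript. The study asked how the coating under oligodendrocyte progenitor cells (OPCs) changes their transcriptome. The OPCs came from H9, a widely used line of human embryonic stem cells, and were grown for 2 days on Matrigel, on vitronectin (VN) or on the vitronectin-derived peptide VNP2, without the SOX10 overexpression used elsewhere in the study.

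Matrigel, the control, is a basement membrane extract rich in laminin and collagen IV. VN is the full-length recombinant protein, which cells bind through integrins that recognise the RGD motif, and VNP2 is a peptide of vitronectin that carries this motif, joined to a mussel adhesive protein. Matrigel had 2 libraries (replicates 2 and 3), VN had 3 and VNP2 had 3. All groups shared the cell line, the OPC medium and the plating density, and the OPCs of the study were passaged by enzymatic dissociation with an inhibitor of ROCK, the kinase that drives myosin II contraction. A single cell line was used, and the labels do not say whether the libraries came from separate cultures, so the p-values measure the spread between these libraries, which may be technical.

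Each library held between 37997896 and 39429453 estimated counts. VN replicate 1 stood apart from the other VN libraries, with a median chi-square per gene of 2.25 and 2.62 against them, where the other pairs within a group gave 0.707 to 1.16 and sampling noise alone would give 0.455. The main counts of called members that it moves are given with and without it. Of the OPC markers, OLIG1 (47.6 to 70.1 TPM), OLIG2 (40.0 to 54.6 TPM), NKX2-2 and PDGFRA were present in every library, whereas SOX10 had 0 to 5 counts per library and GPR17 had 0 to 3. Levels are given in TPM, the relative number of transcripts in a library after correction for transcript length. Values per library follow the order Matrigel 2 and 3, VN 1, 2 and 3, and VNP2 1, 2 and 3. Fold changes are log2 ratios of the fitted counts with their standard errors (SE). Falls given in times are from the same fitted counts, which are scaled between libraries otherwise than TPM. They are therefore not the ratios of the TPM printed beside them, and for TAGLN, SRF, CNN3 and MYL6 they were the larger. Small changes could differ in direction. On Matrigel and VN, mean TPM was 33.4 and 34.9 for ROCK1 and 97.0 and 100.3 for PTK2, with fitted changes below 0. A gene was called when its adjusted p in edgeR's quasi-likelihood test, corrected over all genes tested by the Benjamini-Hochberg procedure, was below 0.05.

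Actin monomers assemble into filaments that cofilin severs and profilin refuels, and tropomyosins, calponins, transgelins and caldesmon lie along the filaments and set what else can bind them. Non-muscle myosin II pulls on filaments held together by alpha-actinins and filamins, and talin, vinculin, paxillin and zyxin couple them to integrins at focal adhesions. The transcription factor SRF, with cofactors that are released when actin monomers are used up, binds the CArG box, a run of A and T bases between CC and GG, and many genes of contractile cells are known targets. In OPCs the actin network shapes the tips of growing processes.

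Promoter windows that hold a CArG box are shown for members of several roles, since SRF and its known targets run through the list. A window of 250 bases before to 50 after a RefSeq gene start was at hand for 43 of the 49 genes (RefSeq, GRCh38.p14), with no entry for ACTB, MYL9, PARVA, PFN2, PTK2 and TAGLN. The box, which reads as the same motif on both strands, was present in 12 of the 43 (27.9%), against 438 of 27305 genes with a window (1.60%) and 1.62% of the tested genes with one. A gene with several starts had several windows and was counted when any of them held the box. The number of windows per gene was not matched between these sets. The 12 were ACTG1, ACTN1, CNN2, FHL1, FHL2, FLNA, LPP, MYLK, ROCK2, SRF, TES and TPM4. Each line gives up to 25 bases on either side of the box, which is in capitals, on the strand of the gene.
SRF, chr6:43171214-43171268, plus strand: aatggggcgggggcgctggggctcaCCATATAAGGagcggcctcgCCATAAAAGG
ACTG1, chr17:81512859-81512918, minus strand: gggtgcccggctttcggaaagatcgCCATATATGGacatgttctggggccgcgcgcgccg
FLNA, chrX:154374694-154374753, minus strand: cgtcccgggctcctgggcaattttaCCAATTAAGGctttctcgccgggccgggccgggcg
ACTN1, chr14:68977703-68977762, minus strand: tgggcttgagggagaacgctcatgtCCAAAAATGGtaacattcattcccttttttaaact
CNN2, chr19:1026494-1026553, plus strand: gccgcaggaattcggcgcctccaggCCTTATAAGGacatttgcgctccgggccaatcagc
TPM4, chr19:16067340-16067399, plus strand: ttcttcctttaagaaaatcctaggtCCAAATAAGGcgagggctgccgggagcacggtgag
MYLK, chr3:123620608-123620667, minus strand: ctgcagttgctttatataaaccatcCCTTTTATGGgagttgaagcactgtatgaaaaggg
The SRF window holds a pair of boxes. MYLK spans chr3:123610049-123884331 on the minus strand, so its window belongs to a start inside the gene, far downstream of the outermost one. Whether the MYLK transcripts measured here begin at that start was not examined. A match of these letters is a description of the window and was not tested as a binding site.

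Most of the 49 genes were lower on the vitronectin coatings than on Matrigel. On VN, 37 were called lower and 0 higher, where 9.41% of all tested genes were called lower and 5.81% higher. Without an adjustment, 40 of the 49 had a p below 0.05 on VN (29.9% of all tested genes) and 42 on VNP2 (29%). DESeq2 called 39 lower and 0 higher on VN, and 15.8% of all tested genes in either direction. On VNP2, 38 were called lower and 1, MYLK, higher, against 9.13% and 7.45% of all tested genes. Across the 3 coatings, 39 of the 49 differed (19.3% of all tested genes). The same 36 genes were called lower on both coatings, which share the Matrigel libraries, and this overlap was not counted over all genes. The median log2 fold change of the 49 genes was -0.43 on VN and -0.43 on VNP2, and that of all tested genes was 0.01 and 0.00. A called fall of at least 1.5-fold was seen for 16 of the 49 on VN (2.53% of all tested genes) and 15 on VNP2 (2.94%). In counts normalized for depth and transcript length, every coated library lay below both Matrigel libraries for 41 genes on VN (22.7% of all tested genes) and 44 on VNP2 (25%). In TPM the same held for 38 and 41 of the 49, which was not counted over all genes. Without VN replicate 1, the counts were 39 called on VN (21.6% of all tested genes), 42 on VNP2 (20.2%) and 44 across the 3 coatings (27.5%). The samples are bulk cultures, so fewer cells of a kind and less RNA per cell cannot be told apart.

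**Figure D1:**
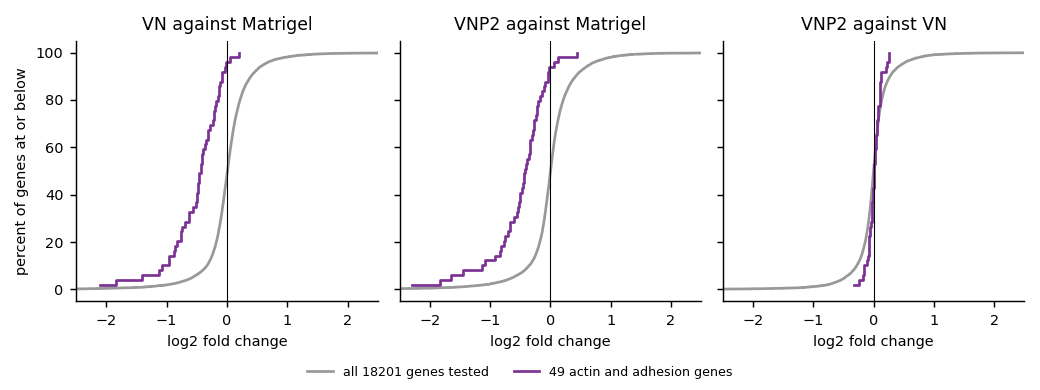
Cumulative percent of genes (vertical axis) at or below each log2 fold change (horizontal axis) for the 49 actin and adhesion genes and for all 18201 genes tested, in the 3 comparisons. The curve of the 49 genes lies to the left of that of all genes in both comparisons with Matrigel, with medians of -0.43, and runs along it between VNP2 and VN.

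**Figure D2:**
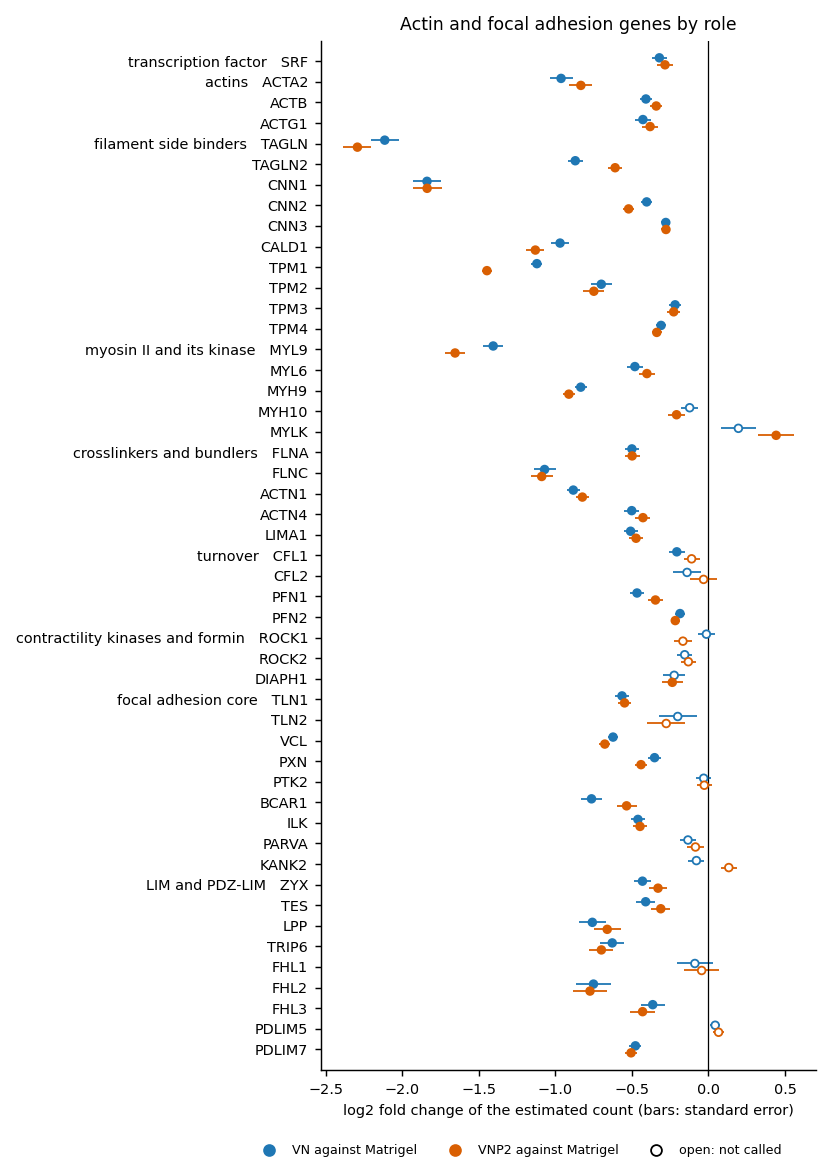
Log2 fold change of each of the 49 genes on VN and on VNP2 against Matrigel (horizontal axis), with bars of 1 SE, ordered by role (vertical axis). Filled points were called and open points were not. TAGLN, CNN1, MYL9 and TPM1 lie farthest to the left, and MYLK, KANK2 and PDLIM5 are the genes with a point to the right of 0.

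SRF itself was at 42.4 and 42.0 TPM on Matrigel, at 36.5, 35.8 and 34.7 on VN, and at 37.7, 34.5 and 36.7 on VNP2. The Matrigel libraries were above the other 6, and the fall was 1.25 times on VN (log2 fold change -0.32 ± 0.05 SE, adjusted p = 0.00177) and 1.22 times on VNP2 (-0.28 ± 0.05, adjusted p = 0.00285).

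The actins were lower on both coatings. ACTB, the main cytoplasmic beta-actin, was at 7911 and 7681 TPM on Matrigel, 6428, 6117 and 6059 on VN, then 6590, 6282 and 6468 on VNP2. ACTG1, cytoplasmic gamma-actin, was at 7944 and 7920 TPM on Matrigel, 6564, 6215 and 5891 on VN, then 6641, 6060 and 6436 on VNP2. Both genes, among the most abundant transcripts and often used as references, were lower in every coated library, with log2 fold changes of -0.41 ± 0.04 and -0.34 ± 0.04 for ACTB (adjusted p = 6.78e-05 and 0.000164) and -0.43 ± 0.05 and -0.38 ± 0.05 for ACTG1 (0.000388 and 0.000602). Their ratio to each other, ACTB over ACTG1, was 0.970 to 1.04 in the 8 libraries. ACTA2, the alpha-actin of smooth muscle and of contractile fibroblasts, was at 30.2 and 27.2 TPM on Matrigel, 15.4, 16.1 and 15.2 on VN, then 17.4, 16.9 and 16.3 on VNP2. Its log2 fold changes were -0.96 ± 0.08 and -0.83 ± 0.07 (adjusted p = 1.78e-05 and 3.15e-05), and it went from 0.381% and 0.355% of the ACTB level on Matrigel to 0.239% to 0.269% in the coated libraries.

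The proteins that lie along the filament held the deepest falls, and all 10 of them were called lower on both coatings. TAGLN (transgelin, ENSG00000149591.16, chr11:117199321-117204782 in GRCh38) was at 485 and 510 TPM on Matrigel, 123, 117 and 125 on VN, then 123, 92.2 and 104 on VNP2. In fitted counts TAGLN was 4.33 times lower on VN (-2.11 ± 0.09, adjusted p = 3.16e-07) and 4.90 times lower on VNP2 (-2.29 ± 0.09, adjusted p = 1.3e-07). CNN1 (calponin of smooth muscle, ENSG00000130176.7, chr19:11538717-11550323) was at 16.8 and 17.98 TPM on Matrigel, 5.52, 5.01 and 4.88 on VN, then 5.11, 5.15 and 5.03 on VNP2. Its fitted counts were 3.58 and 3.57 times lower. For both genes the Matrigel libraries were far above the coated ones.

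The relatives of these proteins that are expressed outside smooth muscle had smaller fold changes. TAGLN2 was at 161 and 170 TPM on Matrigel, 99.6, 92.2 and 95.6 on VN, then 113, 116 and 112 on VNP2. CNN2 was at 305 and 299 TPM on Matrigel, 236, 242 and 246 on VN, then 223, 227 and 212 on VNP2. CNN3 was at 558 and 556 TPM on Matrigel, 478, 487 and 490 on VN, then 489, 480 and 475 on VNP2. None of these groups overlapped with Matrigel, and the falls were 1.83 and 1.53 times for TAGLN2, 1.32 and 1.44 times for CNN2, and 1.21 times on each coating for CNN3. The ratio of TAGLN to TAGLN2 was 3.003 and 2.999 in the Matrigel libraries, 1.23 to 1.31 on VN and 0.793 to 1.09 on VNP2. CNN1 made up 1.91% and 2.06% of the summed calponin TPM on Matrigel and 0.658% to 0.767% in the coated libraries.

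CALD1 encodes caldesmon, which holds myosin back from tropomyosin-coated filaments. It was at 213 and 195 TPM on Matrigel, 106, 111 and 113 on VN, then 99.0, 104 and 90.0 on VNP2, a fall of 1.96 times (-0.97 ± 0.06, adjusted p = 2.92e-06) and 2.19 times (-1.13 ± 0.06, adjusted p = 6.44e-07).

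Tropomyosins are the coiled coils that run along the filament, and the 4 genes moved unequally. TPM1 (ENSG00000140416.20, chr15:63042632-63071915) was at 1111 and 1118 TPM on Matrigel, 530, 535 and 560 on VN, then 444, 423 and 418 on VNP2. TPM1 was 2.17 times lower on VN (-1.12 ± 0.04, adjusted p = 4.78e-08) and 2.73 times lower on VNP2 (-1.45 ± 0.04, adjusted p = 8.97e-09), so that the 3 coatings formed separate steps with no overlap. TPM2 was at 67.9 and 71.8 TPM on Matrigel, 46.5, 41.9 and 47.8 on VN, then 46.0, 43.2 and 41.4 on VNP2. TPM4 was at 548 and 546 TPM on Matrigel, 446, 481 and 471 on VN, then 442, 464 and 453 on VNP2. TPM2 fell by 1.62 and 1.68 times and TPM4 by 1.24 and 1.26 times. TPM3 (305 to 360 TPM) changed by -0.22 ± 0.04 and -0.23 ± 0.04 (adjusted p = 0.00612 and 0.00374), and without Matrigel replicate 2 its adjusted p was 0.0729 on VN and 0.0553 on VNP2. TPM1 made up 53.3% and 53.6% of the summed tropomyosin TPM on Matrigel, 38.3% to 40.0% on VN and 33.8% to 35.4% on VNP2, while the share of TPM4 went from 26.2% and 26.3% to 33.6% to 34.5% and 35.3% to 37.2%.

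**Figure D3:**
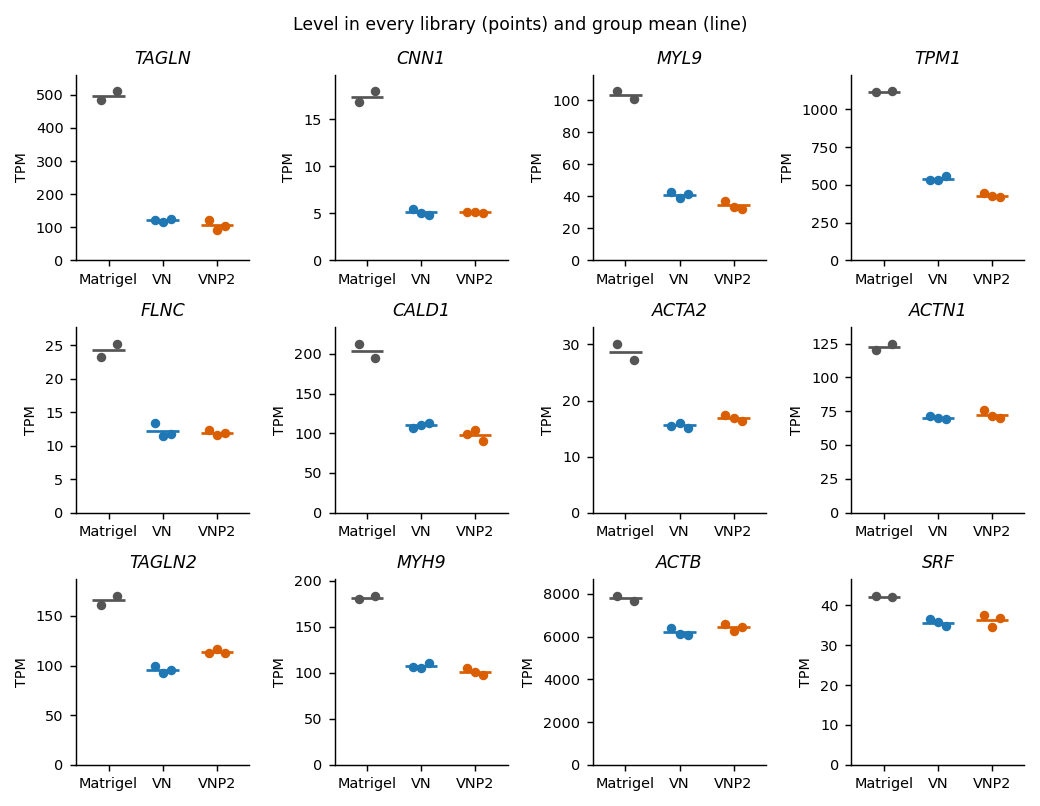
TPM (vertical axis, from 0) of 12 of the genes in every library, by coating. Points are libraries and lines are group means. In each panel both Matrigel points lie above the points of VN and VNP2, and the points of VN and VNP2 do not overlap for TPM1, TAGLN2, MYL9, CALD1 and ACTA2.

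Myosin II is built from heavy chains and light chains. MYL9, the regulatory light chain of smooth muscle and of stress fibres, was at 105 and 100 TPM on Matrigel, 42.4, 39.03 and 41.4 on VN, then 37.1, 33.4 and 32.2 on VNP2. It was 2.65 times lower on VN (-1.41 ± 0.07, adjusted p = 5.88e-07) and 3.15 times lower on VNP2 (-1.65 ± 0.07, adjusted p = 1.37e-07). MYH9, the heavy chain of non-muscle myosin IIA, was at 180 and 184 TPM on Matrigel, 107, 106 and 111 on VN, then 106, 100 and 97.7 on VNP2, and fell by 1.78 and 1.88 times. MYH10, the heavy chain of myosin IIB, was at 173 and 161 TPM on Matrigel, 151, 178 and 158 on VN, where the groups overlapped, and 150, 150 and 154 on VNP2. It was called on VNP2 (-0.21 ± 0.06, adjusted p = 0.0309) and not on VN (-0.12 ± 0.06, adjusted p = 0.179). The VN value had an adjusted p of 0.0201 without VN replicate 2 and 0.000241 without length offsets, and the VNP2 call was lost without either Matrigel library or any of the VNP2 libraries (adjusted p of 0.0504 to 0.255). MYH9 accounted for 50.9% and 53.2% of the MYH9 and MYH10 TPM on Matrigel and for 37.2% to 41.5% in the coated libraries.

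MYL6, the essential light chain, was at 2625 and 2754 TPM on Matrigel, 2159, 1971 and 1974 on VN, then 2180, 2091 and 2124 on VNP2, a fall of 1.40 and 1.32 times. MYLK, the kinase that phosphorylates the regulatory light chain, was at 8.16 and 8.06 TPM on Matrigel, 8.92, 10.3 and 10.3 on VN, then 11.8, 9.54 and 13.4 on VNP2. It was the member called higher, on VNP2 (0.44 ± 0.12, adjusted p = 0.0257), and its value on VN was 0.20 ± 0.12 (adjusted p = 0.295). The call on VNP2 was lost without Matrigel replicate 2 (adjusted p = 0.119), Matrigel replicate 3 (0.143), VNP2 replicate 1 (0.0655) or VNP2 replicate 3 (0.0647), with log2 fold changes of 0.33 to 0.46.

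The crosslinkers and bundlers, which tie filaments into networks and cables, were called lower on both coatings in 5 of 5 cases. FLNC, the filamin of muscle, was at 23.2 and 25.2 TPM on Matrigel, 13.4, 11.4 and 11.7 on VN, then 12.4, 11.6 and 11.9 on VNP2, and fell by 2.10 and 2.13 times (adjusted p = 6.18e-06 and 3.61e-06). ACTN1, an alpha-actinin of stress fibres and adhesions, was at 120 and 125 TPM on Matrigel, 71.2, 70.1 and 68.9 on VN, then 75.7, 71.3 and 70.2 on VNP2, and fell by 1.84 and 1.77 times (adjusted p = 6.31e-07 and 6.92e-07). Their widely expressed relatives had smaller fold changes. FLNA was at 452 and 451 TPM on Matrigel, 357, 322 and 332 on VN, then 341, 336 and 327 on VNP2. ACTN4 was at 293 and 294 TPM on Matrigel, 232, 209 and 216 on VN, then 231, 224 and 231 on VNP2. LIMA1, which bundles filaments and slows their turnover, was at 42.7 and 43.6 TPM on Matrigel, 30.4, 33.6 and 32.2 on VN, then 33.4, 32.6 and 31.7 on VNP2. These 3 genes fell by 1.35 to 1.42 times, with no overlap between the coated and the Matrigel libraries.

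Of the 4 turnover factors, 3 were called lower on VN and 2 on VNP2. PFN1, the main profilin, was at 1500 and 1421 TPM on Matrigel, 1138, 1106 and 1103 on VN, then 1258, 1135 and 1217 on VNP2, and changed by -0.47 ± 0.05 and -0.35 ± 0.05 (adjusted p = 0.000123 and 0.000656). PFN2, the profilin of the nervous system, was at 580 to 658 TPM and changed by -0.19 ± 0.03 and -0.22 ± 0.03 (adjusted p = 0.00289 and 0.000777). CFL1, the main cofilin, was at 1664 to 1930 TPM and was called on VN (-0.21 ± 0.05, adjusted p = 0.0247) and not on VNP2 (-0.11 ± 0.05, adjusted p = 0.198). The VN call was lost without either Matrigel library or without VN replicate 2 or 3 (adjusted p of 0.0771 to 0.16) and with only the pair compared (0.0585). The value on VNP2 had an adjusted p of 0.0132 without VN replicate 1, 0.0399 with the replicate block and 0.0235 with only the pair compared. CFL2, the cofilin of muscle, overlapped between groups at 86.2 to 105 TPM (adjusted p = 0.334 and 0.863), and had an adjusted p of 0.0365 on VN without VN replicate 1.

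Of the contractility kinases and the formin, 0 of 3 were called on VN and 1 on VNP2, with calls that changed with the settings. ROCK1 (29.2 to 36.6 TPM) and ROCK2 (28.3 to 32.8 TPM), the kinases that promote myosin II contraction, had log2 fold changes of -0.01 ± 0.06 and -0.17 ± 0.06, and of -0.16 ± 0.05 and -0.13 ± 0.05, with adjusted p of 0.0649 or more. Without VN replicate 1 the values on VNP2 had adjusted p of 0.0275 for ROCK1 and 0.018 for ROCK2, and without VN replicate 3 that of ROCK2 on VN was 0.0466. ROCK1 on VNP2 also passed without length offsets, without the filter, with the replicate block and with only the pair compared (adjusted p of 0.0278 to 0.0483), and ROCK2 passed on VN with DESeq2 (0.0389) and without the filter (0.0376), and on VNP2 with only the pair compared (0.0263). DIAPH1, a formin that elongates filaments, was at 37.4 to 46.2 TPM and was called on VNP2 (-0.24 ± 0.07, adjusted p = 0.044) and not on VN (-0.22 ± 0.07, adjusted p = 0.0576). The VNP2 call was lost without Matrigel replicate 2 or 3, VN replicate 2 or VNP2 replicate 2 or 3 (adjusted p of 0.0625 to 0.212), and the VN value had an adjusted p of 0.0135 without VN replicate 1 and 0.0362 without VNP2 replicate 3. DIAPH1 on VN was also called lower with DESeq2, without length offsets, without the filter, with at least 50 counts in every library, with the replicate block and with limma on the authors' table (adjusted p of 0.0027 to 0.0498).

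Among the 9 core proteins of the focal adhesion, 5 were called lower on both coatings. VCL (vinculin), which reinforces the bond of talin to actin under load, was at 121 and 123 TPM on Matrigel, 80.6, 83.9 and 86.6 on VN, then 80.9, 81.3 and 77.6 on VNP2. TLN1 (talin), which links integrin tails to actin, was at 56.5 and 60.4 TPM on Matrigel, 40.2, 42.7 and 42.3 on VN, then 41.4, 40.3 and 43.8 on VNP2. BCAR1, a docking protein that is phosphorylated when stretched, was at 65.9 and 64.4 TPM on Matrigel, 40.6, 40.6 and 40.4 on VN, then 51.4, 42.7 and 47.2 on VNP2. VCL fell by 1.54 and 1.60 times (adjusted p = 1.66e-06 and 6.26e-07), TLN1 by 1.48 and 1.46 times, and BCAR1 by 1.70 and 1.45 times. ILK, the pseudokinase that joins integrins to parvins, was at 171 and 172 TPM on Matrigel, 132, 131 and 131 on VN, then 140, 126 and 129 on VNP2. PXN (paxillin), the scaffold of the plaque, was at 44.3 and 44.4 TPM on Matrigel, 36.0, 36.4 and 37.8 on VN, then 34.3, 35.1 and 33.4 on VNP2. ILK fell by 1.38 and 1.36 times and PXN by 1.28 and 1.36 times, again with no overlap.

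The other 4 core genes were not called against Matrigel on either coating. PTK2, the focal adhesion kinase, was at 95.5 to 105 TPM in all 8 libraries, with log2 fold changes of -0.03 ± 0.05 on each coating. PARVA, the parvin that binds ILK, was at 20.8 to 23.6 TPM (-0.13 ± 0.05 and -0.09 ± 0.05, adjusted p = 0.131 and 0.351). TLN2, the talin of brain and muscle, was at 12.1 to 17.6 TPM, with values of -0.20 ± 0.13 and -0.28 ± 0.13 and overlap with Matrigel on VN. Without VN replicate 2 the VN values had adjusted p of 0.039 for TLN2 and 0.0429 for PARVA. Without length offsets, TLN2 was called lower on VN (-0.30, adjusted p = 0.0013) and on VNP2 (-0.38, adjusted p = 0.000188), and PARVA on VN (0.0142). TLN2 on VNP2 also passed without the filter (0.0387) and with only the pair compared (0.0227). KANK2, which sits at the rim of adhesions and binds talin, was at 26.5 and 25.9 TPM on Matrigel, 24.9, 26.9 and 26.8 on VN, then 31.4, 28.5 and 30.2 on VNP2.

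The LIM and PDZ-LIM proteins, several of which gather on filaments under tension, were called lower on both coatings in 7 of 9 cases. LPP, a relative of zyxin first known from fat tumours, was at 15.3 and 18.7 TPM on Matrigel, 11.3, 9.76 and 10.8 on VN, then 11.9, 10.8 and 11.03 on VNP2. FHL2, a LIM-only coactivator, was at 19.0 and 18.2 TPM on Matrigel, 12.5, 10.9 and 11.5 on VN, then 12.6, 11.8 and 9.76 on VNP2. TRIP6, another zyxin relative, was at 33.2 and 36.3 TPM on Matrigel, 24.3, 21.8 and 25.1 on VN, then 22.8, 23.2 and 21.3 on VNP2. The falls were 1.69 and 1.58 times for LPP, 1.68 and 1.71 times for FHL2, and 1.55 and 1.62 times for TRIP6. ZYX (zyxin), which repairs strained stress fibres, was at 137 and 140 TPM on Matrigel, 102, 118 and 105 on VN, then 119, 117 and 111 on VNP2. PDLIM7 was at 232 and 242 TPM on Matrigel, 182, 177 and 180 on VN, then 178, 172 and 174 on VNP2. The fall was 1.35 and 1.26 times for ZYX and 1.39 and 1.42 times for PDLIM7, with no overlap.

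TES (testin) was at 22.2 and 22.8 TPM on Matrigel, 16.9, 19.4 and 17.4 on VN, then 19.1, 19.1 and 18.7 on VNP2, and fell by 1.33 and 1.24 times (adjusted p = 0.00184 and 0.007). Without Matrigel replicate 3 its VNP2 value had an adjusted p of 0.0664. FHL3 was at 24.95 and 23.9 TPM on Matrigel, 21.1, 20.9 and 18.2 on VN, then 19.0, 18.8 and 19.3 on VNP2 (-0.36 ± 0.08 and -0.43 ± 0.08, adjusted p = 0.0123 and 0.00404). Its VN call was lost without Matrigel replicate 2 (adjusted p = 0.101) or 3 (0.0538). PDLIM5 was not called, at 76.0 and 78.2 TPM on Matrigel and 81.9 to 85.9 TPM in the coated libraries (0.04 ± 0.03 and 0.07 ± 0.03).

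FHL1 depended on the table read. Its matched transcripts held a mean of 1160 counts, a share of 0.143 of the mean of 8130 in the authors' gene table, and in them it was not called (-0.09 ± 0.12 and -0.04 ± 0.12). In the authors' table the normalized values were 9123 and 9304 on Matrigel, 7162, 7515 and 7317 on VN, then 8292, 8150 and 8176 on VNP2. There the groups did not overlap, and limma gave -0.33 on VN (adjusted p = 8.8e-05) and -0.17 on VNP2 (adjusted p = 0.00851). The matched transcripts of 45 of the 49 genes came within 5% of the authors' mean. Outside that were FHL1, CFL2 (a share of 0.9499), TPM1 (0.948) and TPM4 (0.926). The transcript and tropomyosin shares given for TPM1 and TPM4 leave out their unmatched transcripts.

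VNP2 and VN differed at these genes about as often as at all genes. Of the 49, 1 was called lower and 2 higher on VNP2 than on VN, where 5.18% of all tested genes were called in either direction (2.1% lower and 3.07% higher), and the median difference of the 49 was 0.00. Unadjusted, 11 had a p below 0.05 (19.7% of all tested genes), and 43 of the 49 differed by less than 0.2 on the log2 scale. TPM1 was lower on VNP2 (-0.33 ± 0.03, adjusted p = 0.000314), and all 3 VNP2 libraries were below all 3 VN libraries. TAGLN2 was higher on VNP2 (0.26 ± 0.04, adjusted p = 0.00704), between the levels on VN and on Matrigel. KANK2 was higher on VNP2 (0.21 ± 0.05, adjusted p = 0.027), a call that was lost without VN replicate 2 or 3 or VNP2 replicate 1 or 3 (adjusted p of 0.0605 to 0.112). MYL9 (-0.25 ± 0.06, adjusted p = 0.0513) and BCAR1 (0.23 ± 0.06, adjusted p = 0.0594) did not overlap between the coatings but missed the threshold. Without VN replicate 1 the count was 9, with ACTB, MYL6, ACTN4 and CFL1 higher and CNN2 and ROCK1 lower on VNP2 in addition to the 3 genes above, while 10.9% of all genes were called in that setting. Without VNP2 replicate 2 it was 5 (3.6% of all tested genes), with MYLK and BCAR1 added.

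Summed over the 49 genes, the list held 2.92% and 2.91% of all TPM on Matrigel, 2.34%, 2.24% and 2.20% on VN, then 2.37%, 2.25% and 2.31% on VNP2. ACTB and ACTG1 made up 1.59% and 1.56% of all TPM on Matrigel and 1.20% to 1.32% in the coated libraries. The other 47 genes made up 1.34% and 1.35% on Matrigel and 1.002% to 1.05% in the coated libraries. The coated libraries were lower on both counts without overlap.

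Transcripts were also tested one by one. Of 355 transcripts of the 49 genes tested, 38 were called lower on VN (0.683% of all 67747 transcripts tested) and 46 on VNP2 (0.781%), and 0 were called higher on either (0.218% and 0.512%). Between VNP2 and VN, 1 was called (0.152%), BCAR1-205, which was at 8.26 and 3.58 TPM on Matrigel and 4.11 to 6.23 on VNP2 and was listed at 0 in the VN libraries. DESeq2 was not run on transcripts, and the p-values do not include the uncertainty of assigning reads to transcripts. Without Matrigel replicate 2 the counts were 16 and 22, and without Matrigel replicate 3 they were 16 and 18. The leading transcript was called lower on both coatings for, among others, TAGLN-206 (292 and 299 TPM on Matrigel, 69.7 to 76.3 on VN, 62.1 to 73.2 on VNP2), CNN1-201, TPM1-206, CALD1-202, MYH9-201, ACTN1-201, CNN2-201, CNN3-201 and TPM4-219.

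TPM1 has alternative starts. The start upstream gives the long tropomyosins of muscle and stress fibres, and an internal start gives the short ones. The first coding exons that tell them apart are printed with the start codon in capitals (GENCODE, GRCh38, plus strand).
TPM1-206, long, chr15:63042830-63042943: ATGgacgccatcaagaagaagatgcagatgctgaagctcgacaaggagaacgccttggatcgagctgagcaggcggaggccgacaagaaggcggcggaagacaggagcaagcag
TPM1-216, short, chr15:63048576-63048707: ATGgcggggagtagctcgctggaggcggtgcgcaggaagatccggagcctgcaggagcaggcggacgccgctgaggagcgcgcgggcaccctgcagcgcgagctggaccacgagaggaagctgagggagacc
Transcripts with the long start summed to 902 and 903 TPM on Matrigel, 417, 406 and 412 on VN, then 347, 322 and 315 on VNP2. Those with the short start summed to 56.8 and 56.7 TPM on Matrigel, 36.3, 38.04 and 45.5 on VN, then 35.4, 39.2 and 34.5 on VNP2. Both forms were lower in the coated libraries, and the long form more so, its share of the pair going from 94.1% on Matrigel to 90.1% to 92.0% on VN and 89.1% to 90.7% on VNP2. The ratios of the group means were -1.13 and -1.46 on the log2 scale for the long form and -0.51 and -0.64 for the short form.

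Whether the make-up of a gene by transcripts changed was tested for 47 of the 49 genes. limma's diffSplice was chosen after the edgeR version had called many unchanged genes in simulated data. It called TPM1 and FLNA on VN (0.505% of genes tested) and on VNP2 (0.309%), and TPM1 between VNP2 and VN (0.269%). Without VN replicate 1, limma called PFN2 on VN as well. edgeR's diffSpliceDGE called BCAR1 and KANK2 on VN (1.47%), TPM1 on VNP2 (1.34%), and BCAR1, KANK2 and TPM1 between the coatings (1.25%), so that TPM1 in the comparisons of VNP2 with Matrigel and with VN was called by both tools. For TPM1 the adjusted p of limma was 0.00304 on VN, 5.5e-06 on VNP2 and 0.0148 between them. On VN it was 0.169 without Matrigel replicate 2, 0.1002 without Matrigel replicate 3 and 0.0801 without VN replicate 3, and on VNP2 it stayed between 1.42e-07 and 0.041 whichever library was left out. Between VNP2 and VN it was 0.116 to 0.155 without VN replicate 2 or 3 or VNP2 replicate 1 or 2. TPM1-206 made up 72.7% and 72.8% of TPM1 on Matrigel, 69.8%, 68.7% and 66.0% on VN, then 70.1%, 67.5% and 67.5% on VNP2, and the retained-intron transcript TPM1-234 set VN apart from VNP2 at 2.04% to 2.92% against 1.20% to 2.02%.

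For FLNA, limma gave adjusted p of 0.000105 on VN and 6.12e-06 on VNP2, and edgeR gave 0.0656 and 0.156. The coding transcript FLNA-201, with 46 coding exons, made up 43.1% and 43.0% of FLNA on Matrigel, 49.3%, 50.6% and 49.1% on VN, then 51.5%, 49.3% and 53.3% on VNP2. FLNA-203, with 47 coding exons, went from 31.9% and 32.1% to 26.0%, 28.0% and 27.8% on VN and 27.2%, 25.4% and 27.1% on VNP2. FLNA-206 went from 10.4% and 11.1% to 7.48%, 6.37% and 6.74% on VN and 8.18%, 9.04% and 5.80% on VNP2. All 6 coated libraries thus held a larger share of FLNA-201 and smaller shares of the other two than both Matrigel libraries. As a transcript, FLNA-203 was called lower (-0.77 ± 0.06 on each coating, adjusted p = 0.00427 and 0.00297). Without Matrigel replicate 3 limma's adjusted p for FLNA on VN was 0.0646, and otherwise it stayed below the threshold against Matrigel.

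CALD1 also starts at more than 1 exon. The first coding exons of the upstream and the downstream start are printed as for TPM1.
CALD1-202, upstream, chr7:134867734-134867804: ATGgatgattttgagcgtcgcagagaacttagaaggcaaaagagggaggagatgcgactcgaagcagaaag
CALD1-203, downstream, chr7:134891621-134891673: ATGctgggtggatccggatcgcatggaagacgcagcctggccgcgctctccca
The upstream start summed to 165 and 172 TPM on Matrigel, 78.8, 83.9 and 91.6 on VN, then 75.4, 83.5 and 73.2 on VNP2. The downstream start summed to 10.999 and 10.9 TPM on Matrigel, 14.5, 11.96 and 10.2 on VN, then 13.6, 10.9 and 12.4 on VNP2. The upstream start was lower in every coated library, while the downstream start overlapped between groups, and these sums were given no test. The transcript make-up of CALD1 was not called by either tool. Vinculin's VCL-201, which holds the 204-base exon of metavinculin (chr10:74111909-74112112), and VCL-202, which lacks it, were both called lower, and VCL-201 made up 70.7% to 78.6% of the pair in the 8 libraries.

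**Figure D4:**
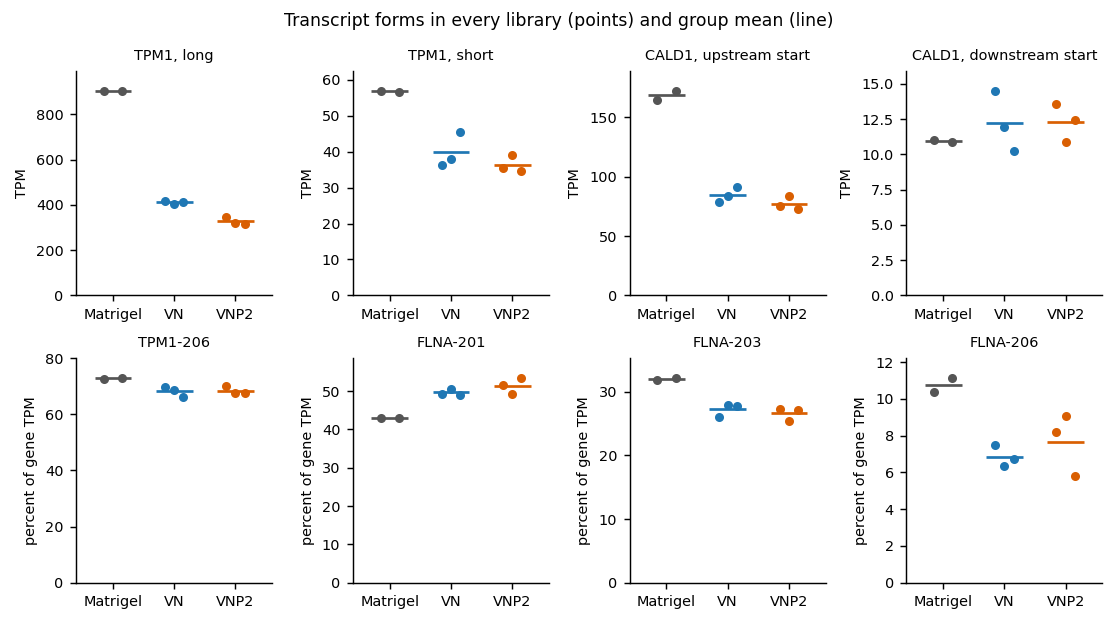
Upper row, TPM (vertical axis, from 0) of TPM1 and CALD1 transcripts by their start, and lower row, percent of the gene's TPM held by TPM1-206 and by 3 FLNA transcripts, in every library by coating, with lines at the group means. The long TPM1 form and the upstream CALD1 form are lower in every coated library, the downstream CALD1 form overlaps between groups, and FLNA-201 takes a larger share on VN and VNP2.

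Of the 12 genes with a CArG box in the window, 9 were called lower on each coating, with median log2 fold changes of -0.41 and -0.36. Of the 31 with a window and no box, 24 and 25 were called lower, with medians of -0.48 and -0.44. A box outside the windows or with a changed letter was not searched for, so the 31 may hold SRF targets. The genes without a window, TAGLN, MYL9 and ACTB among them, are in neither group. The exceptions among the 12 were FHL1, ROCK2 and MYLK. FHL1 was read here from matched transcripts with a share of 0.143 of the authors' mean. In the authors' table it was called lower on both coatings. A TEAD motif (GGAATG, or CATTCC on the other strand), which may overlap a CArG box, was in the window of 18 of the 43 genes (41.9%) against 16.7% of all genes with a window and 15.3% of the tested genes with one. Of these 18, 14 on VN and 15 on VNP2 were called lower, with medians of -0.57 on each coating. Of the 25 with a window and no TEAD motif, 19 were called lower on each coating, with medians of -0.43 and -0.40. Over all tested genes, 9.41% were called lower on VN and 9.13% on VNP2. A TATA motif (TATAAA, or TTTATA on the other strand) in the 250 bases before the start was in 7 of 43 (16.3%) against 13.05% of all genes with a window and 8.53% of the tested genes with one. These are counts of letters in short windows, taken over all windows of a gene, and were given no test.

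Beyond the 49, a list of 131 other actin and adhesion genes was read, of which 129 were tested. The call was lower for 61 and higher for 4 on VN, and lower for 59 and higher for 7 on VNP2, with medians of -0.16 and -0.19. Over all tested genes, 9.41% were called lower and 5.81% higher on VN, and 9.13% and 7.45% on VNP2. The muscle actins went with ACTA2. ACTC1, the cardiac actin, went from a mean of 6.81 TPM on Matrigel to 1.84 on VN and 1.58 on VNP2 (-1.96 ± 0.21 and -2.17 ± 0.22). ACTG2, the enteric actin, changed by -0.75 ± 0.14 and -0.78 ± 0.14, and ACTA1, the skeletal actin at 1.29 TPM on Matrigel, by -0.86 ± 0.26 (adjusted p = 0.0506) and -1.64 ± 0.27 (adjusted p = 0.00221). The actin sequences are close to each other, so that reads could be shared between these genes. LMOD1, the leiomodin of smooth muscle, changed by -0.89 ± 0.19 and -1.09 ± 0.19, and NEXN, which binds filaments in muscle, by -0.50 ± 0.07 and -0.82 ± 0.07. TMOD2, the tropomodulin of neurons, was higher on VNP2 (0.54 ± 0.05).

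Adhesion genes of the wider list were called lower in 19 of 45 cases on each coating, against 9.41% and 9.13% of all tested genes. They were called higher in 1 case on VN and 2 on VNP2, against 5.81% and 7.45%. CSRP1, a LIM protein of smooth muscle, changed by -1.26 ± 0.17 and -1.36 ± 0.17, and CSRP2 by -0.41 ± 0.04 and -0.54 ± 0.04. The PDZ-LIM genes fell with PDLIM7, by -0.83 ± 0.05 and -0.98 ± 0.05 for PDLIM1, -0.77 ± 0.12 and -0.67 ± 0.12 for PDLIM2, and -0.52 ± 0.07 and -0.39 ± 0.07 for PDLIM3. AJUBA, a LIM protein of junctions, changed by -0.71 ± 0.05 and -1.05 ± 0.05, WTIP by -0.66 ± 0.12 and -0.60 ± 0.12, and TGFB1I1, a paxillin relative, by -0.55 ± 0.09 and -0.51 ± 0.09. The PINCH genes, partners of ILK, changed by -0.49 ± 0.06 and -0.50 ± 0.06 for LIMS1 and -1.34 ± 0.32 and -1.28 ± 0.32 for LIMS2. TNS3 (-0.46 ± 0.04 and -0.55 ± 0.04), SORBS2 (-0.55 ± 0.07 and -0.60 ± 0.07) and SYNPO (-0.50 ± 0.10 and -0.58 ± 0.10) were also called lower on both coatings. ARHGEF6, an exchange factor for Rac, was higher on both (0.39 ± 0.08 and 0.66 ± 0.08), and KANK4 was higher on VNP2 (0.75 ± 0.22, adjusted p = 0.0442). CRIP1 was called between VNP2 and VN (1.38 ± 0.27, adjusted p = 0.0143), at means of 2.21, 1.16 and 2.98 TPM on Matrigel, VN and VNP2.

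Among the remaining genes of that list, RHOB, a small GTPase of endosomes, changed by -1.06 ± 0.05 on VN and -0.64 ± 0.05 on VNP2, and RHOC by -0.54 ± 0.06 and -0.41 ± 0.05. RHOB was higher on VNP2 than on VN (0.43 ± 0.05, adjusted p = 0.000457), as was ELK3, an SRF partner, which changed by -0.67 ± 0.06 and -0.31 ± 0.06 against Matrigel. MYL12A, a regulatory light chain, changed by -0.61 ± 0.07 and -0.46 ± 0.07, and MYO1C by -0.64 ± 0.06 and -0.58 ± 0.06. PLS3, a bundling plastin, changed by -0.51 ± 0.04 and -0.61 ± 0.04 and EZR (ezrin) by -0.50 ± 0.04 and -0.54 ± 0.04. ARPC1B, a subunit of the Arp2/3 complex, changed by -0.70 ± 0.10 and -0.61 ± 0.10. The genes called higher on both coatings were WASF1 and WASF3, whose proteins switch on the Arp2/3 complex, MARCKS, which tethers actin at the membrane, and ARHGEF6.

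**Figure D5:**
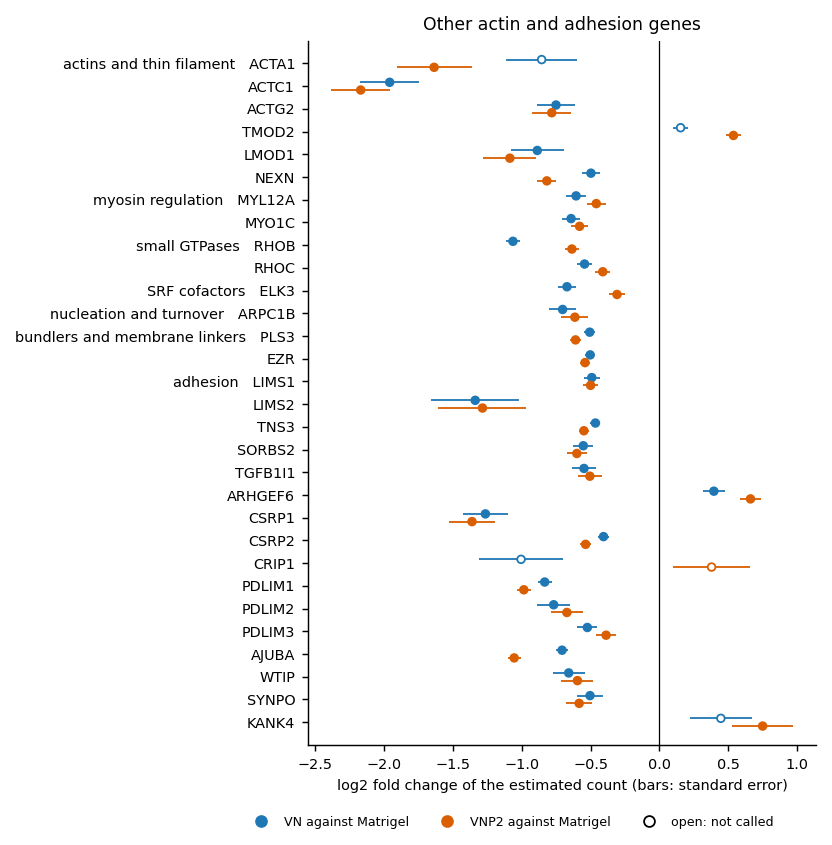
Log2 fold change on VN and on VNP2 against Matrigel (horizontal axis, bars of 1 SE) of 30 other actin and adhesion genes called in a comparison with a change of at least 0.5, ordered by group (vertical axis). Filled points were called and open points were not. Most lie to the left of 0, TMOD2, ARHGEF6 and KANK4 lie to the right on both coatings, and CRIP1 lies to the right on VNP2 only, as an open point.

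Several members are also typical of smooth muscle, pericytes and fibroblasts, so markers of these cells are given beside them. Their calls stand beside 9.41% lower and 5.81% higher over all tested genes on VN, and 9.13% and 7.45% on VNP2. Of 9 smooth muscle or pericyte markers outside the 49 genes, 7 were tested and 4 were called lower on each coating, and the summed level of the 9 was 191 to 203 TPM on Matrigel, 123 to 140 on VN and 117 to 121 on VNP2. The 4 called were RGS5, NOTCH3, ACTG2 and LMOD1, while KCNJ8, ABCC9 and MYOCD were not called. ACTG2 and LMOD1 are also in the wider list above. NOTCH3 (95.7 and 103.7 TPM on Matrigel) and RGS5 held most of the sum. RGS5, a pericyte gene, went from 70.9 and 76.3 TPM to 28.7, 23.9 and 27.2 on VN and 13.7, 16.1 and 15.9 on VNP2. The defining smooth muscle genes MYH11 (0 to 5 counts per library) and DES (1 to 9) were near 0, and MYOCD, which drives the smooth muscle program, was at 17 to 40 counts. Of 10 fibroblast or mesenchymal markers, 4 passed as higher and 2 as lower on VN, 6 as higher and 2 as lower on VNP2, and their sum overlapped between Matrigel (528 to 537 TPM) and VNP2 (525 to 561), and was 603 to 639 on VN. Of 8 striated muscle markers, 6 were tested and 1 was called lower on VN (ACTC1) and 2 on VNP2 (ACTC1 and ACTA1). These are the muscle actins already given above. MYH3, TNNT1, TNNT2 and TTN were not called on either coating, and MYOG and MYOD1 had at most 2 counts. The sum was 8.3 to 11.8 TPM on Matrigel and 3.8 to 5.6 in the coated libraries. Of 8 neuron markers, 4 were called higher on VN and 6 on VNP2, and the sum was 755 to 788 TPM on Matrigel, 850 to 909 on VN and 921 to 945 on VNP2. Of 8 OPC markers, 6 were tested and 2 were called higher on VN and 5 on VNP2, with a sum of 111 to 113 TPM on Matrigel, 141 to 143 on VN and 143 to 151 on VNP2. Of 5 astrocyte markers, 3 were tested and 1 was called lower on each coating, and the sum was 190 to 201 TPM on Matrigel, 113 to 124 on VN and 132 to 142 on VNP2. The 1 called was GJA1, which held most of that sum (188 and 198 TPM on Matrigel), while SLC1A2 and ALDH1L1 were not called. GFAP (1 to 9 counts per library) and AQP4 (2 to 7) were near 0. Of 6 neural crest markers, 4 were tested and 1 was called lower on each coating, with 1 higher on VNP2, and the sum was 32.4 to 33.2 TPM on Matrigel, 15.1 to 17.6 on VN and 20.6 to 22.4 on VNP2. The 1 lower was ETS1, which held most of that sum (28.6 and 30.1 TPM on Matrigel), and the 1 higher was TFAP2A. TFAP2B and SNAI2 were not called. Of 5 endothelial markers, 3 were tested and 2 were called lower on each coating, CDH5 by -1.92 ± 0.36 on VN and -1.60 ± 0.34 on VNP2 and TEK by -0.99 ± 0.15 and -1.36 ± 0.15, while KDR, which holds most of the sum of 10.3 to 12.1 TPM, was not called. Of 5 pluripotency markers, 1 was called lower on VN, and 3 lower and 1 higher on VNP2, with a sum of 91.4 to 96.3 TPM on Matrigel, 82.6 to 84.3 on VN and 75.8 to 79.0 on VNP2. The part of these cell types in the falls of the 49 genes was not tested.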

How the data were processed

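RNA of H9-derived OPCs on 3 coatings was sequenced by the study from stranded, paired-end libraries of polyA RNA. Per the labels and the study's methods, the authors trimmed reads with Trim Galore and ran Salmon on transcripts of GRCh38.p13 (GENCODE), and deposited estimated counts and TPM per transcript and library. They also deposited a gene table of normalized signal from DESeq2 (version 1.27.12), which has no raw counts. Versions of the other tools are not given in the sources used here.

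Transcripts were matched by identifier to GENCODE v29, which held 205225 of 226608 transcripts and 98.8 to 98.9% of the estimated counts, and summed per gene. Of 23350 genes in the authors' table, 22839 were matched. Estimated counts were rounded and fitted over all 8 libraries with edgeR 4.0.16 (quasi-likelihood, TMM, offsets for transcript length, filterByExpr with a minimum of 10 counts and 15 in all), with R 4.3.3. P-values were adjusted by Benjamini-Hochberg over all 18201 genes or 67747 transcripts and called below 0.05. SEs were the log2 fold change over the root of its F statistic. At 100 counts, sampling alone gives an error of 10%. Isoform use was tested with edgeR diffSpliceDGE, and with limma 3.58.1 diffSplice after simulated data showed that the former called many unchanged genes. In those data, which simulated VNP2 against Matrigel over 11782 genes with 50 changed, edgeR called 39 of the 50 and 50 unchanged genes, and limma 38 and 4. Gene fits were also tested on simulated data.

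The members and lists were chosen with earlier results of these data known. Values per library are given for members called in a comparison with a log2 fold change of at least 0.3, and for SRF, ACTB and ACTG1. Other pathway genes are named when called with at least 0.5, except that 1 gene of that list is not reported here, and transcripts when they hold at least 10% of their gene and were called. WASF1, WASF3 and MARCKS, called higher on both coatings with smaller changes, were named after their values were seen. Motifs were counted in RefSeq windows (GRCh38.p14). Alternatives were DESeq2 1.42.0, RLE normalization, no length offsets, other filters, the replicate block, the pair compared alone, limma on the authors' table with a pseudocount of 1, and leaving out each library.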

Additional observations from a re-analysis of the deposited data

How the results depend on the processing

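Against Matrigel, 36 to 43 members were called under every alternative that kept both Matrigel libraries, where 9.69% to 21.6% of all tested genes were called. With either Matrigel library left out, the median log2 fold change of the members was -0.43 to -0.44. No called fold change turned direction in any alternative run. Between VNP2 and VN the count of 3 (5.18% of all tested genes) moved to 7 with DESeq2 (6.41%), 5 without length offsets (6.04%) and 6 without the filter (4.13%). It was 5 with at least 50 counts in every library (6.86%), 6 with the replicate block (6.41%) and 5 with limma on the authors' table (4.06%). Leaving out each VN or VNP2 library in turn gave 2 to 9 members there, with 9 without VN replicate 1 (10.9%) and 5 without VNP2 replicate 2 (3.6%). The number of member transcripts called fell with the replicate block from 38 to 19 on VN, from 46 to 24 on VNP2 and from 1 to 0 between them. Leaving out each library gave 16 to 52, 18 to 49 and 0 to 4 transcripts, with 22 on VN without VN replicate 2 or 3, 25 to 30 on VNP2 without one of the VNP2 libraries and 4 between the coatings without VN replicate 1. In isoform use, limma in place of edgeR called 2 genes on VNP2 where edgeR called 1, and 1 between the coatings where edgeR called 3, and the replicate block called 4 on VN where edgeR without it called 2, and 2 on VNP2. The cause of these moves was not tested. The replicate numbers are not a shared batch in the labels, and same-numbered libraries did not deviate together (correlations of -0.0451 to 0.0158). The counts of the replicate block are therefore given here only. It called 38 members on VN (18.7% of all tested genes), 41 on VNP2 (17.3%) and 40 across the 3 coatings (21.9%). The value for Matrigel rests on 2 libraries, and with either of them left out the other is assumed to vary like the rest. Transcripts that share exons are limited by how reads were assigned.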
